A study of Mus musculus with 18 samples.

Results

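Mouse embryonic stem cells that lack Daxx were compared between 2 cultures, a ground-state medium (2i with vitamin C) and the conventional serum medium, 3 libraries each. These 6 libraries are those whose labels give the Daxx-null genotype together with either medium, out of 18 libraries in the series. Both groups are Daxx-/- derivatives of E14Tg2a, a male mouse embryonic stem cell line. The serum group (replicates 1 to 3) grew in DMEM with 10% fetal bovine serum and leukaemia inhibitory factor (LIF, 1000 units/mL). The 2i group (replicates 1 to 3) grew without serum in Neurobasal and DMEM/F-12 with N2 and B-27 supplements, inhibitors of the kinases GSK3 and MEK, LIF, and vitamin C at 100 µg/mL, given as L-ascorbic acid 2-phosphate. LIF was common to both media. The parental wild-type line, grown in the same media with 3 libraries per medium, served to show where the culture difference of Daxx-null cells departed from that of the parent. The site of the deletion and the number of Daxx-null clones are not given in the sources used here.

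Daxx is a histone chaperone that, with its partner Atrx, places the histone variant H3.3 on telomeres, pericentromeric heterochromatin and retroviral elements. Inhibition of MEK blocks signalling from fibroblast growth factor, and inhibition of GSK3 lets beta-catenin accumulate as if Wnt were present. Mouse embryonic stem cells held in this way lose much of their DNA methylation, and vitamin C, a cofactor of the Tet enzymes that oxidise methylcytosine, adds to the loss. Genes known to be silenced by methylation in these cells include germ-cell genes and endogenous retroviruses.

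Among the gene groups that were higher in 2i, interferon-stimulated genes and germ-cell genes carry short promoter motifs that can be shown directly. The promoters come from RefSeq on GRCm38.p6 and cover 250 bases before to 50 bases after each gene's start. This build is not the mm9 build of the deposited values, and the 2 were joined by gene symbol alone. Of 47 tested interferon-stimulated genes 34 had a promoter in the table (38 promoters). The core of the interferon-stimulated response element was searched on both strands as GAAA, any 2 bases, then GAAA. It was found in 52.6% of those 38 promoters, against 3.44% of all 32851 promoters and 2.92% of the promoters of tested genes. Among promoters of the members higher in 2i the share was 51.4%, close to that of all tested members. Some genes with the motif whose values are given below are printed as examples, picked by hand. Each is shown as 100 bases on the strand of its gene, 5′ to 3′, with the motif (or its reverse complement) in capitals. They lie at chr4:156200836-156200935 (minus strand) for Isg15, chr19:34640749-34640848 (plus strand) for Ifit1, chr5:92349040-92349139 (minus strand) for Cxcl10, chr3:142620559-142620658 (plus strand) for Gbp2 and chr2:122147503-122147602 (plus strand) for B2m. In Isg15, 3 matches overlap in 1 run of capitals, and Ifit1 has 2 separate matches.
Isg15: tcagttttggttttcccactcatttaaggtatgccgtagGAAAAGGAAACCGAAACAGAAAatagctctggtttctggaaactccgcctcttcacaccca
Ifit1: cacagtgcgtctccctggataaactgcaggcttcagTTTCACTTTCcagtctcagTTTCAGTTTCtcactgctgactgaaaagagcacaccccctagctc
Cxcl10: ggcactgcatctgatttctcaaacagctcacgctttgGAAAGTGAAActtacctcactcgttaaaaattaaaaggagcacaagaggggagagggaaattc
Gbp2: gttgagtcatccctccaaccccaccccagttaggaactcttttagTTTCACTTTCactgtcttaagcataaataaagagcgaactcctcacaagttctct
B2m: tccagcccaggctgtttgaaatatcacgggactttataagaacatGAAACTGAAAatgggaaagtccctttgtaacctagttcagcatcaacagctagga
A match is a run of letters and says nothing of what binds there.

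For germ-cell genes known to be methylated in somatic cells, 31 of 35 tested members had a promoter in the table (37 promoters). The palindromic E-box CACGTG was found in 54.1% of these, against 7.15% of all promoters and 9.26% of those of tested genes. Members that rose in 2i are printed in the same way, with the E-box in capitals, and were chosen after their values were seen. They are Slc25a31 at chr3:40708731-40708830 (plus strand), Brdt at chr5:107331069-107331168 (plus strand), Fkbp6 at chr5:135350061-135350160 (minus strand) and Sycp1 at chr3:102936142-102936241 (minus strand).
Slc25a31: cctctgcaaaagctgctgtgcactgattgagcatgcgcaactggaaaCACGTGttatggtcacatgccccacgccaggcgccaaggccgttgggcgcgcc
Brdt: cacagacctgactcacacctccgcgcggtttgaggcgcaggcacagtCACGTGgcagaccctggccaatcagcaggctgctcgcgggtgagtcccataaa
Fkbp6: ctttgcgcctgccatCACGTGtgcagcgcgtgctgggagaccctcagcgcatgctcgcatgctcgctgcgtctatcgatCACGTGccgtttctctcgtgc
Sycp1: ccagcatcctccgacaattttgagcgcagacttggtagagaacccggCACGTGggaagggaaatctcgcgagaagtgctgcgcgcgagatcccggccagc
The same hexamer was also present in promoters of members that fell in 2i (Ddx25, Tdrd1 and Ddx4) of the same list.

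Expression is given as the authors' FPKM, reads per length of exons, on a scale that by inference is about 10 times the conventional one, and a fold change is a log2 difference of FPKM + 0.5, which understates the change of low genes. Adjusted p-values are Benjamini-Hochberg values from limma over all 18002 genes tested. Steps between low values gave the depth, which ran from 109.9 to 126.2 M counting units (M, mega) in serum and from 96.0 to 113.6 M in 2i. Genes above 0 numbered 18119 to 18573 in serum and 19992 to 20091 in 2i. The labels call replicates independent without saying what separates them, so a p-value covers no more than the variation among these libraries, which may be technical. Wild-type 2i replicate 3 stood apart from its group, with Isg15 at 71.5, 81 and 1.76 and Tex101 at 69.3, 80 and 7.88 in the 3 libraries, and with 18220 genes above 0 against 19370 and 19552.

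Daxx (NM_007829, chromosome 17, 34046390 to 34052535, mm9) was low in all 6 libraries. It stood at 54.4, 56 and 57.6 FPKM in 2i and 68.7, 72.2 and 73.7 in serum (log2 -0.35, SE 0.07, adjusted p = 4.8e-04). Wild-type libraries held 434, 423 and 402 in 2i and 307, 319 and 353 in serum, so every Daxx-null value was below every wild-type value.

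The 2 Daxx-null cultures differed in Y-linked RNA. The summed FPKM of Ddx3y, Eif2s3y, Kdm5d and Uty was 244.7, 183.3 and 213.4 in 2i and 2.66, 2.74 and 2.18 in serum, a difference of 211.3 (exact two-sided permutation p = 0.1, the smallest that 3 against 3 allows). Without 2i replicate 2 the difference was 226.5. Eif2s3y, a translation initiation factor gene of the Y chromosome (NM_012011, chromosome Y, 347055 to 365037), was at 127, 95 and 103 in 2i and 0.934, 1.26 and 1.03 in serum, and Ddx3y, an RNA helicase gene (NM_012008, chromosome Y, 597158 to 623056), was at 97.2, 65.6 and 89 and 1.65, 1.39 and 1.08. Wild-type sums were 352.6, 359.3 and 319.8 in 2i and 259.3, 246.6 and 157.7 in serum. The Daxx-null serum libraries therefore stand apart from the other libraries compared here in carrying almost no Y-linked RNA. Medium and this difference between the cells cannot be told apart in any Daxx-null value below.

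Replicate 2 of Daxx-null 2i stood apart in neural RNA. The summed FPKM of 39 neural markers was 1262, 5067 and 1096 in 2i and 2680, 2579 and 2666 in serum. The culture difference was -166.7 with all libraries (exact two-sided permutation p = 1) and -1463 without replicate 2 (p = 0.1, the smallest that 2 against 3 allows). Replicate 2 exceeded 2 times the mean of the other 2i libraries for 30 of the 39 markers. Dcx, a microtubule-associated protein of migrating neurons, was at 0.59, 177 and 0.593 in 2i and 0, 0.088 and 0.039 in serum, and the radial glial gene Fabp7 was at 3.26, 169 and 1.52 and 0.12, 0.419 and 1.37. In these bulk libraries fewer cells of a type and less RNA per cell cannot be told apart. For each gene and repeat list below, the counts or median without replicate 2 are given beside those with it.

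**Figure D1:**
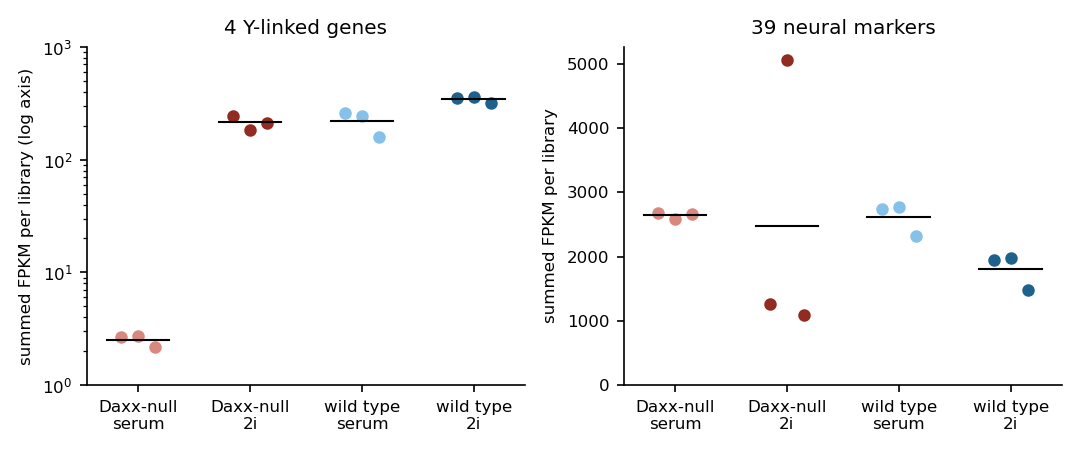
Summed FPKM of 4 Y-linked genes (left, log axis) and 39 neural markers (right, linear axis), 1 point per library in replicate order, with the mean of each group as a bar. Daxx-null serum libraries sit between 2.18 and 2.74 in Y-linked RNA, and Daxx-null 2i replicate 2 reaches 5067 in neural markers where the other Daxx-null 2i libraries hold 1096 and 1262.

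Much of the transcriptome differed between the 2 cultures of Daxx-null cells. Of 18002 genes, 7525 (41.8%) were higher and 3931 (21.8%) lower in 2i at an adjusted p under 0.05, of which 4760 and 1494 changed at least 2-fold. In 7734 genes (43%) every 2i library was above every serum library, and in 3946 (21.9%) every one was below. Without replicate 2 the counts were 7319 (40.7%) higher and 3990 (22.2%) lower, of which 6913 and 3485 were the same genes.

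The balance of higher and lower genes depended on how libraries were scaled. The median log2 difference over all tested genes was 0.28, and it was -0.08 after quantile normalization, where 5130 genes (28.5%) were higher and 6153 (34.2%) lower. Of the genes called, 65.7% were higher with FPKM as deposited, 54.3% with median-ratio scaling, 45.5% with quantile normalization and 45.4% in the authors' normalised table. By mean level, the median was 0.59 under 1 FPKM, 0.98 at 1 to 10, 0.33 at 10 to 100 and -0.03 above 100 FPKM. Gene lists below are therefore read against the median of 0.28 and these shares.

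The largest rises were in genes that were almost silent in serum. Pramel6 (NM_178249, chromosome 2, 87348615 to 87351022), of a family expressed in oocytes and early embryos, went from 0.237, 0 and 0 in serum to 431, 263 and 301 in 2i (log2 9.16, SE 0.36, adjusted p = 2.3e-11). Ifi27, an interferon-inducible gene of the mitochondrial membrane (NM_194068, chromosome 12, 104672399 to 104678455), went from 0, 0.808 and 0 to 488, 349 and 354 (log2 9.15, SE 0.53, adjusted p = 8.7e-10). No serum library of either gene reached 1 FPKM and all 2i libraries exceeded 250. Ly6a, which encodes the surface antigen Sca-1, rose from 2.97, 4.66 and 3.63 to 2117, 882 and 1389 (log2 8.35, adjusted p = 8.0e-12). The others of the 12 largest rises were Fthl17d, Crxos, Vnn1, Adh1, Serpina3m, Tuba3b, Pramel7, Isg15 and Cryge, with log2 differences of 7.56 to 8.69.

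Some of the largest falls were in genes well expressed in serum and close to silent in 2i. The homeobox gene Nkx6-3 (NM_029002, chromosome 8, 24263743 to 24269420) went from 170.0, 145 and 149 in serum to 1.15, 0.346 and 0.887 in 2i (log2 -6.96, SE 0.24, adjusted p = 5.7e-12). Fgf17, a fibroblast growth factor, fell from 177, 160.4 and 165 to 2.15, 0.23 and 1.3 (log2 -6.79, adjusted p = 5.3e-10). Tcf15, a helix-loop-helix factor tied to exit from the naive state (NM_009328, chromosome 2, 151969345 to 151974832), fell from 1038, 1178 and 1178 to 20, 15.7 and 14.3 (log2 -6.06, adjusted p = 2.6e-12). In each of the 3 genes the 2 cultures were separated by a wide gap. Gngt2, Lefty1, Slc23a1 (a vitamin C transporter), Napsa, Spry4, Esrp1 and Chrna9 fell, with log2 differences of -6.00 to -4.92. Spink1 was listed at 0 in every 2i library and at 20.1, 16.9 and 19.5 in serum. All genes named here as largest rises or falls had groups that did not overlap. They were also called in the same direction without replicate 2. The rule that chose them required both.

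**Figure D2:**
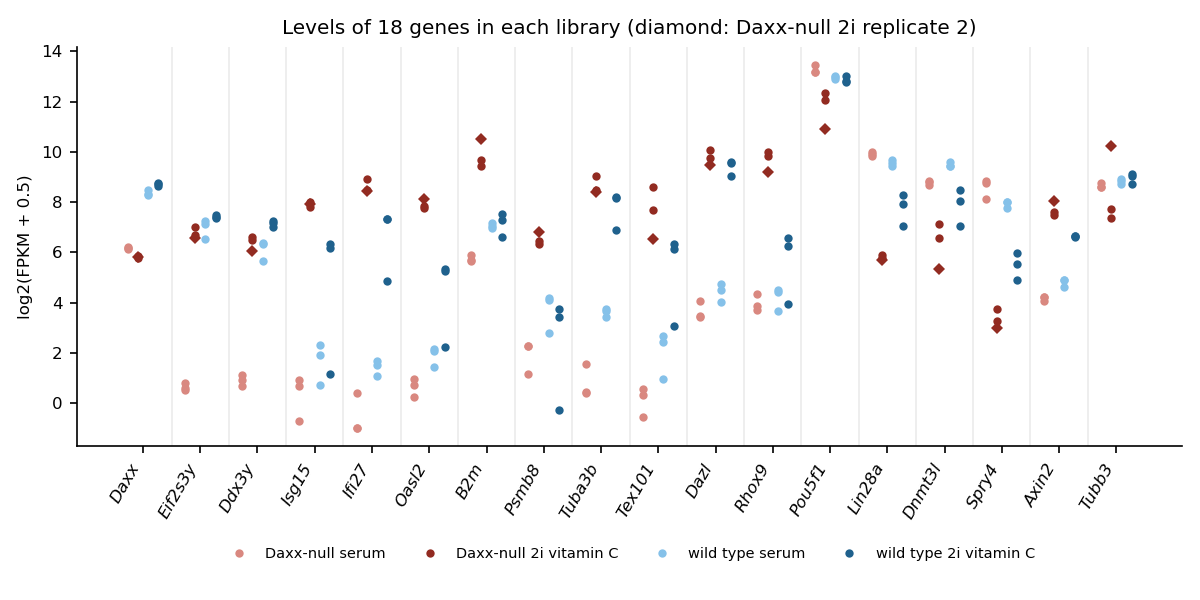
Level of 18 genes in each library as log2(FPKM + 0.5), 1 point per library, coloured by genotype and culture, with Daxx-null 2i replicate 2 as a diamond. Daxx-null serum points of Isg15, Ifi27 and Oasl2 lie at the bottom of the axis, and wild-type 2i replicate 3 (the lowest dark blue point) lies far below the other wild-type 2i libraries for Isg15, Oasl2, Psmb8, Tex101 and Rhox9.

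Most genes of the core pluripotency list were lower in 2i. Of 16 tested core members 15 fell and 1 (Dppa2) rose, with a median log2 of -1.42 (14 fell and 1 rose without replicate 2, median -1.20). Pou5f1, which encodes Oct4, stood at 5198, 1918 and 4249.9 FPKM in 2i and 11170.5, 9292 and 9265 in serum (log2 -1.50, SE 0.44, adjusted p = 0.0074). Replicate 2 was the lowest of the 2i libraries, and without it the log2 difference was -1.07 (adjusted p = 0.043). The RNA-binding protein gene Lin28a (NM_145833, chromosome 4, 133559245 to 133574731), which blocks maturation of let-7, fell from 1022, 905 and 953 to 55, 51.6 and 59.3 (log2 -4.11, SE 0.21, adjusted p = 2.0e-10). Utf1 (-3.15), Lin28b (-3.00) and L1td1 (-2.19) also fell on the log2 scale.

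Naive factors did not move as 1 group. Of 19 tested members 7 rose and 7 fell, with a median of 0.00 (8 and 6 without replicate 2, median 0.13). Nanog stood at 3773, 2594 and 3061 in 2i and 2512, 2257 and 2120.2 in serum, and all 2i libraries were above all serum libraries, yet the test was not passed (log2 0.44, adjusted p = 0.075); it was passed without replicate 2 (log2 0.57, adjusted p = 0.036). Klf4 had a log2 difference of -0.41 (adjusted p = 0.17). Esrrb fell by 0.88 (adjusted p = 0.014), a call that was lost without replicate 2 (log2 -0.67, adjusted p = 0.064). Spic, an Ets factor typical of 2i, rose from 10.6, 4.28 and 5.42 to 177, 120.3 and 145 (log2 4.43, adjusted p = 1.8e-09), and Dppa3, which protects maternal methylation marks, from 31.7, 39.8 and 37.7 to 449, 316 and 280.2 (log2 3.22, adjusted p = 1.4e-06). Gbx2 fell from 555, 644 and 729 to 58.7, 69.1 and 46.6 (log2 -3.46, adjusted p = 6.1e-11), and Nr0b1 from 1713, 1081 and 1085 to 334, 186 and 296 (log2 -2.25, adjusted p = 2.0e-07). Pecam1 rose by 1.59.

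Genes of the formative and primed epiblast fell or did not pass the test. Of 18 tested members 0 rose and 10 fell, with a median of -1.07 (0 and 14 without replicate 2, median -1.05). Pou3f1 fell from 65.8, 139.8 and 158 to 3.31, 7.26 and 2.01 (log2 -4.76, adjusted p = 4.1e-08), and Otx2, a regulator of the formative state, from 96.3, 128 and 124 to 26.8, 21.4 and 25.9 (log2 -2.21, adjusted p = 5.8e-06). Fgf5 fell by 3.64 and the kinase gene Pim2 fell by 2.06. Fgf15 is an example of what replicate 2 did, with 1.03, 163 and 1.27 in 2i and 64.3, 73 and 69 in serum (log2 -3.18, or -5.39 without that library).

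Feedback genes of FGF and ERK and targets of Wnt moved mostly in opposite directions. The media differ in more than the inhibitors, and the part of each component was not tested. Of 20 tested FGF and ERK feedback genes 15 fell and 3 rose, with a median of -1.51 (15 and 2 without replicate 2, median -1.28). Spry4, a feedback inhibitor of receptor kinases (NM_011898, chromosome 18, 38745919 to 38760922), went from 278, 428 and 452 in serum to 12.9, 7.43 and 9.25 in 2i (log2 -5.22, SE 0.26, adjusted p = 1.7e-10). Dusp6, a phosphatase of ERK, went from 188, 253 and 278 to 16.9, 38.4 and 14.9 (log2 -3.44, adjusted p = 1.1e-08). Etv4, an Ets factor induced by ERK (NM_001316365, chromosome 11, 101631062 to 101646624), went from 417, 352 and 363 to 50.8, 19.7 and 32.9 (log2 -3.53, adjusted p = 1.1e-07). For these 3 genes no 2i library reached the lowest serum library. Egr1 (-3.21) and Epha2 (-2.74) fell as well.

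Wnt targets were mostly higher. Of 20 tested members 13 rose and 2 fell, with a median of 1.81 (12 and 2 without replicate 2, median 1.26), and with quantile normalization 9 rose and 6 fell. Axin2, a feedback inhibitor and the usual readout of beta-catenin, rose from 16.1, 18.3 and 18.2 to 181, 264 and 193 (log2 3.55, SE 0.13, adjusted p = 1.0e-11). Sp5 rose from 14.4, 23.9 and 26.7 to 340.0, 262 and 256 (log2 3.73, adjusted p = 1.9e-09), and Cdx1, a caudal homeobox gene, from 9.02, 10.1 and 4.7 to 185, 86 and 155 (log2 4.07, adjusted p = 1.2e-07). Dkk1, a secreted Wnt antagonist (4.34), Tnfrsf19 (3.85) and Cd44 (3.67) rose on the log2 scale. Cd44 was at 39.8 in replicate 2, above the other 2i libraries.

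In the Nodal and BMP list 8 of 14 tested members fell and 1 rose (9 and 0 without replicate 2). Lefty1, a Nodal antagonist and target (NM_010094, chromosome 1, 182865153 to 182868532), fell from 849.6, 646 and 680.3 to 18.5, 13.9 and 15.4 (log2 -5.46, adjusted p = 1.2e-10). Bmp4, a ligand of the BMP pathway, fell from 406, 372 and 403 to 47.5, 67.5 and 44.6 (log2 -2.90, adjusted p = 1.3e-09). The activin subunit gene Inhbb (-3.60), Lefty2 (-3.04) and Skil (-1.99) fell too.

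Of 15 tested genes of DNA methylation 8 fell and 3 rose, with a median of -0.28 (6 and 3 without replicate 2). Dnmt3b, a de novo methyltransferase, fell from 450.4, 539 and 570.1 to 158, 94.8 and 152 (log2 -1.97, SE 0.22, adjusted p = 1.2e-06), and its cofactor Dnmt3l from 413, 439 and 461 to 140.4, 39.5 and 95.6 (log2 -2.43, SE 0.50, adjusted p = 5.3e-04). Dnmt3a fell by 0.49 (adjusted p = 0.0036). Uhrf1, which guides the maintenance methyltransferase to replicated DNA, was at 596, 527 and 542 in 2i and 643, 541 and 514 in serum, and the groups overlapped (log2 -0.02, adjusted p = 0.84). The oxidase genes Tet1 (log2 -1.48, adjusted p = 1.9e-07) and Tet2 (log2 -0.92, adjusted p = 2.3e-05) fell too. Mbd2, a reader of methylated DNA, rose by 1.29. RNA levels say nothing here of methylation itself, which was not measured.

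Chromatin genes moved in both directions. Among 28 tested genes of H3.3 deposition and H3K9 silencing 7 rose and 14 fell (median -0.26, the same counts without replicate 2). Trim28, the corepressor of KRAB zinc finger proteins, fell by 1.02, the heterochromatin protein gene Cbx1 fell by 1.03 and Pml, the scaffold of nuclear bodies in which Daxx resides, from 669.6, 722 and 722 to 250.3, 217 and 277 (log2 -1.51, adjusted p = 5.0e-10). Sp100, another protein of these bodies, was listed at 0 in all serum libraries and at 23.8, 29.9 and 20 in 2i. Zfp809, a zinc finger repressor of retroviruses, rose by 1.24. In the Polycomb list 9 of 24 rose and 7 fell (median 0.03, 10 and 7 without replicate 2), against 41.8% and 21.8% of all tested genes. The subunit genes Bmi1 (2.81), Cbx8 (2.75) and Pcgf5 (1.73) rose and Cbx7 fell (-1.45).

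Germ-cell genes were among the clearest groups. Of 35 tested genes of the methylated germline list 26 rose and 3 fell, with a median of 2.05 (26 and 4 without replicate 2, median 1.98). Dazl, an RNA-binding protein of germ cells (NM_001277863, chromosome 17, 50418718 to 50432945), was at 1084, 712 and 867 in 2i and 16.1, 10.2 and 10.7 in serum (log2 6.12, SE 0.29, adjusted p = 1.2e-10). Asz1, of the piRNA pathway, was at 92.2, 66.6 and 74.1 and 0.106, 0 and 0 (log2 7.18, adjusted p = 1.4e-10). For both genes all 2i libraries were far above all serum libraries. Tex101, a testis surface protein, rose from 0.174, 0.983 and 0.742 to 390.4, 92 and 204 (log2 7.50, adjusted p = 2.7e-07), with replicate 2 the lowest of the 2i libraries. The testis tubulin genes Tuba3b (7.82) and Tuba3a (5.01) rose too.

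The genes printed with an E-box were among those that rose. Slc25a31, a germ-cell ADP/ATP carrier, was at 169, 159 and 144 in 2i and 7.75, 4.4 and 3.98 in serum (log2 4.8, adjusted p = 3.7e-08). Brdt, a testis bromodomain protein, was at 65.3, 106 and 98.5 and 3.75, 2.91 and 2.19 (log2 4.71, adjusted p = 3.0e-09), and Fkbp6 was at 345, 181 and 248 and 16.7, 19.3 and 12.4 (log2 3.93, adjusted p = 1.6e-08). Sycp1, of the synaptonemal complex, rose from 3.37, 4.98 and 3.19 to 14.9, 10.3 and 13.5 (log2 1.63, adjusted p = 1.4e-05). The members that fell, Ddx25 (-2.05), Tdrd1 (-1.66) and Ddx4 (-0.65), are germ-cell genes as well.

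On the X chromosome 22 of 23 tested germ-cell genes of the Xlr, Mage and neighbouring families rose and 0 fell (median 5.90, 6.15 without replicate 2). Over the alternative settings the median ran from 4.86 to 7.48, because many members were near 0 in serum and their log2 difference depends on the pseudocount. Fmr1nb (NM_001166620, chromosome X, 66015014 to 66057735) was at 431, 208 and 311 in 2i and 0.9, 1.01 and 1.95 in serum (log2 7.46, SE 0.36, adjusted p = 1.3e-10). Magea4 (7.14) and Magea8 (7.37) also rose, and Magea2 and Magea5 were listed at 0 in every serum library, with 67.7, 45.1 and 43.7 and 114, 72.5 and 71.7 in 2i. All 11 tested Rhox homeobox genes rose (median 4.65, 4.74 without replicate 2). Rhox9 (NM_023894, chromosome X, 35252274 to 35254947) was at 1013, 585 and 910.4 in 2i and 14, 19.5 and 12.5 in serum (log2 5.71, adjusted p = 8.2e-08), and Rhox6 (5.46), Rhox13 (4.72) and Rhox2a (6.49) rose with it. Of 10 Pramel genes 9 rose and 0 fell (median 3.24, 3.35 without replicate 2), among them Pramel7 (7.80) and Pramef17 (6.85). The median of all 732 tested X-linked genes was 0.69. These families have near-identical copies, so the share of each copy is uncertain, and the same holds for the Tuba3 pair.

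Nearly all interferon-stimulated genes were higher in 2i. Of 47 tested members 44 rose and 0 fell, with a median of 3.57 (44 and 0 without replicate 2, median 3.55). Isg15, a ubiquitin-like modifier (NM_015783, chromosome 4, 155573533 to 155574927), was at 255, 241 and 222 in 2i and 1.09, 0.105 and 1.38 in serum (log2 7.62, SE 0.97, adjusted p = 4.7e-06). Oasl2, of the oligoadenylate synthetase family, was at 216, 279.6 and 226 and 0.669, 1.44 and 1.16 (log2 7.27, adjusted p = 3.4e-08), and Ifit1 (NM_008331, chromosome 19, 34715379 to 34724499), which binds uncapped RNA, was at 22.8, 71.6 and 34 and 0.069, 0.06 and 0.065 (log2 6.10, adjusted p = 1.6e-06). The 3 genes were near 0 in every serum library.

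Cxcl10, a secreted chemokine (NM_021274, chromosome 5, 92775665 to 92777915), was at 31.1, 65.5 and 33.8 in 2i and 0, 0.868 and 0.473 in serum (log2 5.57, adjusted p = 6.1e-07). Gbp2, an interferon-induced GTPase (NM_010260, chromosome 3, 142283627 to 142300972), was at 128, 229 and 163 and 4.06, 11.2 and 11.6 (log2 4.29, adjusted p = 1.9e-04), and Usp18, which removes Isg15 from its targets, rose by 6.10. Replicate 2 was the highest 2i library for Cxcl10, Gbp2, Ifit1 and Usp18, and it exceeded 2 times the mean of the other 2i libraries for 7 of the 47 members. The log2 differences without it were 5.24, 4.07, 5.65 and 5.81. The members that did not pass were Oas3 (-0.12), Ifitm3 (-0.21) and Trim25 (0.26).

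Genes of antigen presentation by MHC class I were higher in 2i. Of 18 tested members 17 rose and 0 fell, with a median of 2.84 (17 and 0 without replicate 2, median 2.55). B2m, the light chain of all class I molecules (NM_009735, chromosome 2, 121973423 to 121978818), was at 807, 1444 and 688 in 2i and 50.5, 58.6 and 51.8 in serum (log2 4.11, SE 0.23, adjusted p = 7.0e-10). The heavy chain gene H2-D1 was at 633, 989 and 656 and 56.7, 62.2 and 50.6 (log2 3.71, adjusted p = 4.8e-10). The immunoproteasome subunit Psmb8 (NM_010724, chromosome 17, 34335140 to 34338399) was at 80.8, 111 and 88.1 and 1.72, 4.3 and 4.33 (log2 4.64, adjusted p = 5.3e-05). H2-T22 (3.70) and H2-T23 (3.49) rose as well, while Psmb10 did not pass the test (log2 0.62, adjusted p = 0.06). Heavy chain genes resemble each other closely, which makes their single values uncertain.

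Genes known to respond to retinoic acid and Hox genes were higher in 2i. Of 31 tested members 28 rose and 0 fell, with a median of 3.95. Replicate 2 exceeded 2 times the mean of the other 2i libraries for 23 of the 31, and without it 27 rose and 0 fell, with a median of 3.07. Stra8, a gene of meiotic entry (NM_009292, chromosome 6, 34870960 to 34889342), was at 2331, 1593 and 2218 in 2i and 76.8, 77.8 and 80.6 in serum (log2 4.68, SE 0.18, adjusted p = 1.4e-11). Cyp26a1, which degrades retinoic acid, was at 32.6, 124 and 39.9 and 0.411, 2.1 and 1.75 (log2 4.98, or 4.39 without replicate 2). Hoxb9 was at 94.9, 652 and 89.5 and 6.38, 5.08 and 5.57 (log2 4.85, or 3.91). Stra8 was lowest in replicate 2, whereas Cyp26a1 and Hoxb9 were highest there. Hoxa5 (5.33) and Hoxa3 (4.66) rose too.

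Most markers of primitive endoderm were higher in 2i, with 18 of 25 tested members up and 2 down (median 2.08, and 16, 1 and 1.69 without replicate 2). Gata6, its key transcription factor (NM_010258, chromosome 18, 11052508 to 11085633), was at 101, 76 and 85.6 in 2i and 2.43, 2.09 and 1.73 in serum (log2 5.09, SE 0.21, adjusted p = 3.0e-11). Sox17 was at 15.5, 71.5 and 14.7 and 0.277, 1.25 and 0.526, with replicate 2 the highest (log2 4.54, or 3.80 without it). Cited1 (4.94), Srgn (4.45) and Dab2 (4.32) rose. The summed FPKM of the list was 4949 to 5707 in 2i and 3901 to 4100 in serum. Wild-type sums were 4742 to 7324 in 2i and 4812 to 5358 in serum, a range that overlaps that of Daxx-null 2i.

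In the neural list 11 of 39 tested markers rose and 6 fell (median 0.87), but without replicate 2 only 7 rose and 15 fell (median -0.06). Irx3 (3.28) and Nefm (3.28) were higher also without it. Ina, a neuronal intermediate filament, was at 24.5, 431 and 24.6 in 2i and 407, 445 and 465 in serum (log2 -2.76, or -4.13 without replicate 2). Tubb3, neuronal tubulin, was at 213, 1204 and 164 and 434, 392 and 391 and passed the test only without replicate 2 (log2 -1.11, adjusted p = 1.6e-04). Nhlh1 was at 2.27, 51.1 and 1.85 in 2i and 0.806, 0.414 and 0.382 in serum.

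Fibroblast and matrix genes were also higher, 16 of 20 tested members up and 1 down (median 2.72, and 2.08 with the same counts without replicate 2). Col3a1 was at 10.2, 119.8 and 10.9 in 2i and 0, 0.072 and 0.078 in serum, and Col1a1 at 22.6, 129.5 and 24.6 and 1.28, 2.18 and 2.02, with replicate 2 the highest for both. The log2 differences were 5.48 and 4.20, and 4.33 and 3.39 without that library. Timp3 (4.24), Col1a2 (4.63) and Snai2 (3.31) rose, and Postn and Lum were listed at 0 in all serum libraries. The summed FPKM was 2015 to 4473 in 2i and 1161 to 1364 in serum. Of 23 tested SRF and YAP contractile targets 16 rose and 0 fell (median 1.66, and 14, 1 and 1.41 without replicate 2). The actin genes Acta2 and Acta1 stood at 66.3, 89.3 and 52.4 and 204, 156 and 189 in 2i and at 0.533, 1.51 and 0.472 and 2.1, 5.97 and 6.27 in serum (log2 5.75 and 5.23). Ankrd1 (4.27), Tagln (2.79) and Zyx (2.31) rose with them. The part of other cell types in these values was not tested.

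Genes of mitosis were lower. Myc, a growth regulator in the G1 and S list, fell from 507, 515 and 541 to 39.7, 36.3 and 29.2 (log2 -3.89, adjusted p = 6.4e-08). Of 20 tested genes of G2 and M phase 16 fell and 0 rose, by a small amount (median -0.51, and 18 and 0 without replicate 2), the largest being Bub1b (-1.28), Cdc20 (-1.26), Kif11 (-0.96), Aurkb (-0.84) and Ccnb2 (-0.77). In the G1 and S list 8 of 24 rose and 11 fell (the same counts without replicate 2). Cdkn2a, which encodes p16 and p19Arf (NM_009877, chromosome 4, 88920377 to 88940523), was at 435, 413 and 374 in 2i and 15.7, 17.2 and 19.9 in serum (log2 4.50, SE 0.33, adjusted p = 1.1e-08). Cdkn2b (3.98) and Cdkn2c (3.44) rose, and Ccnd2 fell by 2.99. Of 29 tested p53 targets 16 rose and 5 fell (median 1.03, and 18, 5 and 1.15 without replicate 2). Cdkn1a, the p21 gene, rose from 241, 238 and 223 to 1962, 1278 and 1758 (log2 2.81, adjusted p = 5.1e-08), with rises of the death receptor gene Fas (3.03), Rrm2b (2.37), Dcxr (2.25) and Ddit4l (2.22).

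Of 24 tested glycolysis and hypoxia genes 14 fell and 3 rose (median -0.98, and 16, 2 and -1.14 without replicate 2). Ldha, lactate dehydrogenase, fell from 2653, 2567 and 2449 to 511, 673 and 376 (log2 -2.34, adjusted p = 3.9e-07), and the glucose transporter gene Slc2a1 from 1419.5, 2105 and 1986 to 397, 450.0 and 363 (log2 -2.17, adjusted p = 8.1e-08). Pdk1 (-2.39), Pfkl (-2.30) and the lactate exporter gene Slc16a3 (-3.92) fell.

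Imprinted genes are expressed from 1 parental allele under the control of methylation. Of 43 tested members 19 rose and 9 fell (median 0.46, and 17, 10 and 0.12 without replicate 2), shares close to those of all tested genes (41.8% and 21.8%). With quantile normalization 17 rose and 15 fell. H19, a maternally expressed RNA (NR_130973, chromosome 7, 149761435 to 149764051), was at 165, 298 and 197 in 2i and 1.55, 4.57 and 3.14 in serum (log2 5.99, SE 0.92, adjusted p = 3.2e-05). Its neighbour Igf2, a growth factor (NM_001315488, chromosome 7, 149836673 to 149852721), was at 515, 2304 and 584 and 13.4, 31.5 and 29.1 (log2 5.23, adjusted p = 3.8e-05). Plagl1 (4.48), Sgce (3.26) and Nap1l5 (2.82) rose. Replicate 2 exceeded 2 times the mean of the other 2i libraries for 19 of the 43 members, and without it Igf2 had a log2 difference of 4.54 and H19 of 5.75.

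**Figure D3:**
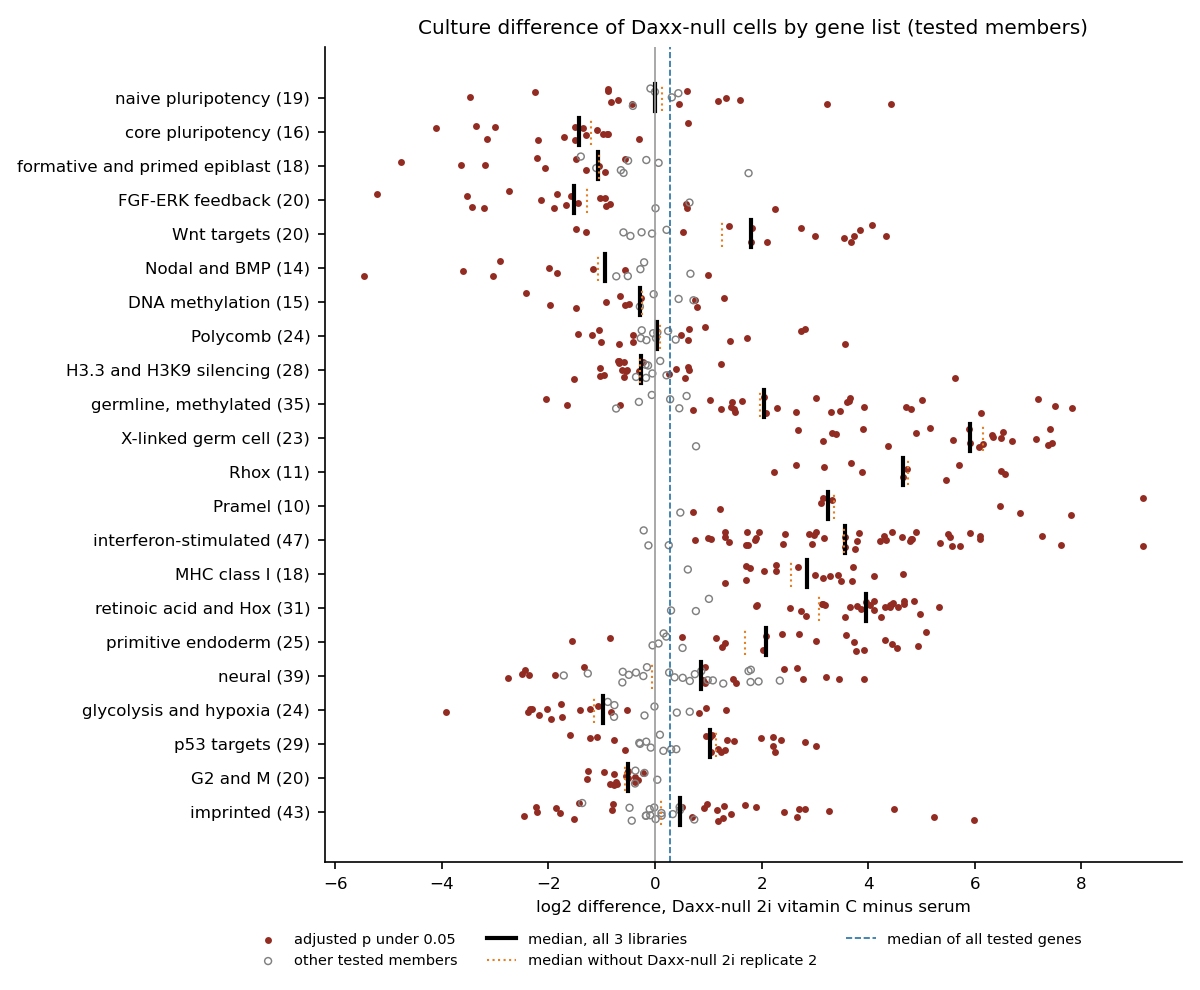
Log2 difference, Daxx-null 2i minus serum, for each tested member of 22 gene lists (filled points passed an adjusted p of 0.05, open points did not), with list medians as black bars, medians without replicate 2 as dotted bars and the median of all tested genes as a dashed line. Interferon-stimulated, MHC class I, X-linked germ-cell, Rhox and retinoic acid medians lie to the right of 0.28, the core pluripotency median to the left, and the neural median moves from 0.87 to -0.06 when replicate 2 is left out.

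Repeat RNA was measured as FPKM per subfamily, divided by copies and mean length and scaled to a separate set of repeat reads. This set was 11.1 to 12.2% of the size of the gene set in Daxx-null serum and 16.7, 13.4 and 18.9% in 2i, so a repeat value is a share of repeat reads and not an amount. Of 864 subfamilies tested 151 (17.5%) were higher and 278 (32.2%) lower in 2i (median -0.13). The groups did not overlap for 161 higher (18.6%) and 270 lower (31.2%). Without replicate 2, 141 (16.3%) were higher and 348 (40.3%) lower. With median-ratio scaling the split was 212 higher and 204 lower, against 151 and 278.

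Intracisternal A particles (IAP), a young family of the ERVK class that is silenced by methylation and H3K9 methylation, were higher in 2i. Of 16 tested subfamilies 15 rose and 0 fell, with a median of 1.31 (16 and 0 without replicate 2, median 1.40). IAPEz-int, the internal part of the commonest type, was at 106, 118 and 116 in 2i and 13.4, 14.3 and 14.9 in serum (log2 2.95, SE 0.15, adjusted p = 1.1e-09). IAPLTR1_Mm, its long terminal repeat, was at 221, 151 and 164 and 18, 19.8 and 20.9 (log2 3.14, adjusted p = 1.0e-09). IAPEy-int showed the largest rise of all subfamilies, from 0.192, 0.232 and 0.209 to 25.1, 33.1 and 24.5 (log2 5.24, adjusted p = 1.4e-13). Its name comes from the Y chromosome, whose RNA also differed between these cultures. In wild-type cells IAPEy-int rose by 5.05. The part of Y-linked copies in these values was not tested.

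The related ETn and MusD family went the other way, 4 of 5 subfamilies down and 1 up, with or without replicate 2. MMETn-int was at 121, 127 and 125 in 2i and 614, 663 and 674 in serum (log2 -2.38, SE 0.09, adjusted p = 5.8e-11). ETnERV-int (-2.11) and the long terminal repeat RLTRETN_Mm (-1.97) fell, whereas ETnERV3-int rose from 1.28, 1.8 and 1.84 to 42.4, 38.3 and 54.9 (log2 4.40, adjusted p = 7.9e-11). All 9 MMERVK10C and RLTR10 subfamilies rose (median 1.38, and all 9 without replicate 2, median 1.56), among them MMERVK10C-int (2.04), RLTR10D (2.24), RLTR10-int (2.03) and RLTR10B2 (1.75). Of 24 leukaemia virus-like ERV1 subfamilies 15 rose and 4 fell (13 and 3 without replicate 2). MMERGLN-int was at 161, 159 and 206 in 2i and 9.34, 12.2 and 12.3 in serum (log2 3.90, SE 0.36, adjusted p = 9.3e-07), and MMVL30-int (2.89), RLTR1B (2.14) and the Y-enriched MURVY-int (2.15) rose. In a list of 7 Y-enriched subfamilies, which shares members with these, 4 rose and 3 fell with or without replicate 2, MURVY-LTR among the latter (-1.14).

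Young L1 elements rose in all 6 tested subfamilies (median 0.77; all 6 without replicate 2, median 0.86), and 4 did with only the libraries compared in the fit. L1Md_T was at 18.8, 16.4 and 23.9 in 2i and 7.14, 6.43 and 6.77 in serum (log2 1.45, adjusted p = 1.6e-05), and L1Md_Gf (1.54), L1Md_A (1.12) and L1Md_F3 (0.43) rose too. All 14 B1 subfamilies, short elements that lie mostly within genes, fell slightly (median -0.51, and all 14 without replicate 2, median -0.59), the largest being PB1D9 (-0.74). In the B2 and B3 list 3 of 5 fell and 0 rose, and both B4 subfamilies fell (B4 -0.41, B4A -0.41). MERVL, the endogenous virus of the 2-cell stage, and its MT2 repeats had 0 rises and 3 falls in 7, the largest being MT2B (-0.55), and 1 fall with only the libraries compared. Over all subfamilies tested 17.5% were higher and 32.2% lower, so 3 falls in 7 do not set this list apart. The B2 and B3, B4 and MERVL counts were the same without replicate 2. Among 94 MaLR subfamilies 15 rose and 35 fell (13 and 45 without replicate 2, 11 and 21 with only the libraries compared). With all libraries in the fit these shares are close to those of all subfamilies tested (17.5% higher and 32.2% lower). Single rises in this list were those of ORR1A0-int (1.89), MLT1J1-int (2.95) and ORR1A1-int (1.49). Of 5 satellite subfamilies 1 fell (SUBTEL_sa, -0.58, adjusted p = 0.021) and 0 rose. Without replicate 2 there were 2 falls and 0 rises, where 40.3% of all subfamilies tested were lower and 16.3% higher. The call of SUBTEL_sa was lost with only the libraries compared (adjusted p = 0.073), with quantile normalization (adjusted p = 0.064) and with median-ratio scaling. Outside these lists HAL1 (-1.79), LTR64 (-1.86) and the small nucleolar RNAs U17 (-1.59) and U14 (-1.55; -0.27, adjusted p = 0.38 with quantile normalization) were among the largest falls, and RLTR13B2 (4.53), RLTR45-int (3.02) and RLTR44D (2.93) among the largest rises.

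**Figure D4:**
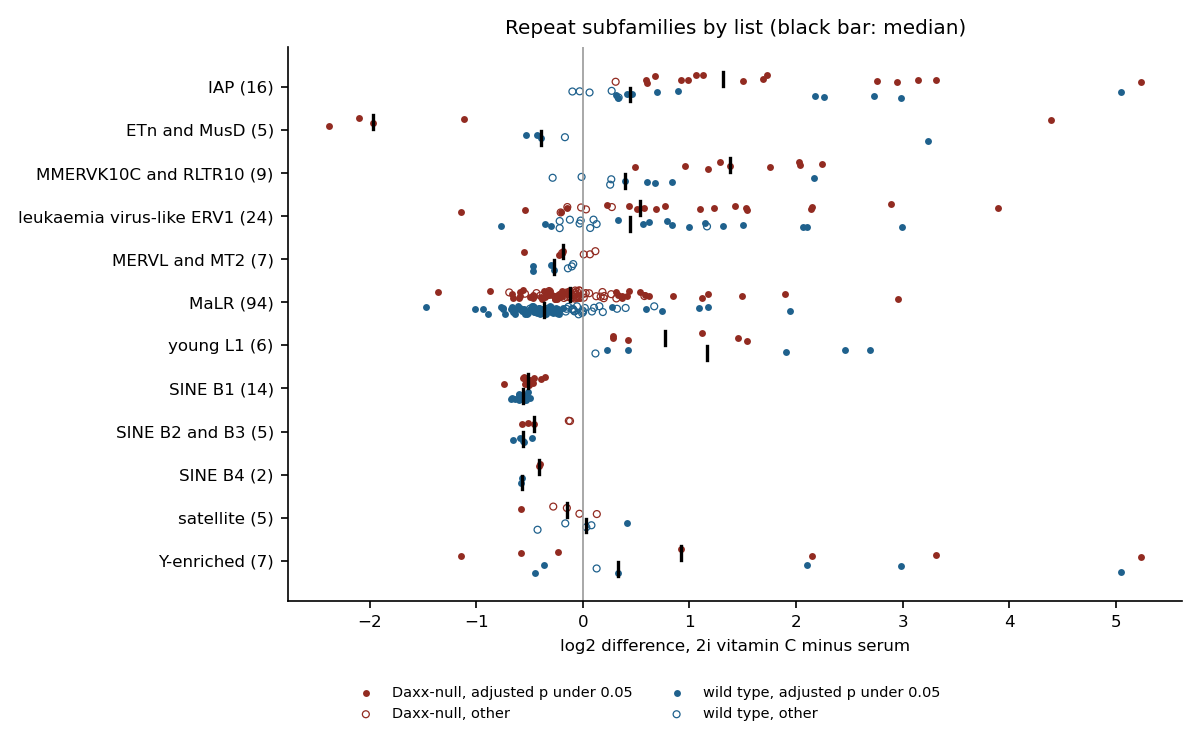
Log2 difference, 2i minus serum, of each tested repeat subfamily by list in Daxx-null (red) and wild-type (blue) cells, filled where the adjusted p was under 0.05, with a black bar at the median. IAP subfamilies lie to the right in Daxx-null cells (median 1.31), B1 subfamilies lie slightly to the left in both genotypes (-0.51 and -0.57), and 4 of 5 ETn and MusD subfamilies lie to the left, further in Daxx-null than in wild-type cells.

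The same culture comparison in wild-type cells set the background for these results. There 4452 genes (24.7%) were higher and 4461 (24.8%) lower in 2i, with a median log2 of -0.02, and 85 repeat subfamilies (9.84%) were higher and 436 (50.5%) lower. Across the 18002 genes the differences of the 2 genotypes had a Pearson r of 0.639 and a Spearman rho of 0.546, a description over genes that are not independent replicates. Of the genes higher in Daxx-null 2i 45.0% were also higher in wild-type 2i (76.0% of the latter), and of those lower 54.0% were also lower in wild type (47.6% of the latter). The test of the difference itself (Daxx-null minus wild-type log2 difference) was passed by 5678 genes (31.5%) upward and 2079 (11.5%) downward, around a median of 0.34 (5666 and 2088 without Daxx-null 2i replicate 2). For repeats it was passed by 152 (17.6%) upward and 37 (4.28%) downward (124 and 45). With quantile normalization the gene counts were 3054 and 3441, so the balance of directions depended on the scaling.

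Most MHC class I and interferon-stimulated genes had a larger culture difference in Daxx-null than in wild-type cells. For MHC class I all 18 tested members passed the test of the difference upward, also without Daxx-null 2i replicate 2 and without wild-type 2i replicate 3. In wild type 1 member rose and 8 fell with culture (median -0.72), and 3 rose and 5 fell without wild-type 2i replicate 3 (median -0.28). B2m stood at 155, 186 and 95.8 in wild-type 2i and 132, 144 and 125 in wild-type serum (log2 0.07), so the difference was 4.03 (adjusted p = 8.5e-07). The Daxx-null serum values of B2m were below every wild-type value, and its Daxx-null 2i values were above every one. Psmb8 differed by 6.04 (adjusted p = 3.9e-04), or 4.76 without wild-type 2i replicate 3. Of the interferon-stimulated genes 26 rose and 3 fell in wild type (33 and 3 without that replicate), and the difference was passed by 40 of 47 upward and 0 downward (39 and 0, and 37 and 0 without Daxx-null 2i replicate 2). Isg15 rose by 2.91 in wild type (difference 4.71, adjusted p = 0.012), and without wild-type 2i replicate 3 by 4.60 (difference 3.02, adjusted p = 0.0034). Cxcl10 differed by 6.31 (adjusted p = 3.9e-05).

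Germ-cell groups rose in both genotypes. X-linked germ-cell genes had 21 rises and 0 falls of 23 in wild type (median 3.19), and 17 passed the test of the difference upward (16 without Daxx-null 2i replicate 2). Rhox genes had 9 rises of 11 in wild type (difference 10 upward), Pramel genes 7 of 10 (8 upward), and the methylated germline list 18 rises and 9 falls of 35 (21 upward, 1 downward). Without Daxx-null 2i replicate 2 the upward counts were 11, 8 and 21, and without wild-type 2i replicate 3 they were 8, 8 and 18. Dazl rose by 4.97 in wild type against 6.12 in Daxx-null cells (difference 1.15, adjusted p = 0.035), a call that was lost without wild-type 2i replicate 3 (difference 0.97, adjusted p = 0.084). Fmr1nb rose by 1.62 in wild type, where serum libraries already held 117, 135 and 73.5 FPKM (difference 5.84, adjusted p = 1.2e-06).

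Retinoic acid and Hox genes rose in both genotypes too. In wild type 20 of 31 rose and 2 fell (median 2.70), and 6 passed the test of the difference upward, a share below the 31.5% of all genes. With quantile normalization the counts were 2 upward and 3 downward, without Daxx-null 2i replicate 2 they were 5 and 2, and without both libraries that stand apart 7 and 5. Primitive endoderm markers differed upward in 17 of 25 (16 without Daxx-null 2i replicate 2), with 5 rises and 7 falls in wild type (6 and 4 without wild-type 2i replicate 3). Of the p53 targets 19 of 29 differed upward and 0 downward (20 and 1 without Daxx-null 2i replicate 2), with 4 rises and 12 falls in wild type. Wnt targets had 5 rises and 4 falls of 20 in wild type (median 0.23). The difference was passed by 11 upward and 2 downward, with or without Daxx-null 2i replicate 2, and by 8 and 5 with quantile normalization.

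Downward differences were found among pluripotency and ERK feedback genes (5 upward and 10 downward of 20 in the latter, with or without Daxx-null 2i replicate 2). Of 16 core pluripotency members 9 passed downward and 0 upward (10 and 0 without Daxx-null 2i replicate 2), with 2 rises and 6 falls in wild type (median -0.33). Lin28a differed by -2.28 (adjusted p = 3.1e-05), while Pou5f1 did not pass (-1.41, adjusted p = 0.079). Etv4 was at 434, 472 and 461 in wild-type 2i and 309, 319 and 318 in wild-type serum (log2 0.53), a difference of -4.06 (adjusted p = 9.8e-06). Bmp4 differed by -3.07 and Dppa3, which was not higher in wild-type 2i (log2 -0.84), by 4.06. Among glycolysis genes 21 of 24 fell and 0 rose in wild type, and 13 differed upward and 2 downward (12 and 2 without Daxx-null 2i replicate 2).

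Among repeats, MMETn-int stood at 417, 425 and 349 in wild-type 2i and 545, 558 and 502 in wild-type serum (log2 -0.43), so the difference was -1.95 (adjusted p = 3.6e-07), and all 5 ETn and MusD subfamilies passed the test of the difference, 4 downward and 1 upward, with or without Daxx-null 2i replicate 2. IAP subfamilies had 11 rises and 0 falls in wild type (median 0.44), and 12 of 16 differed upward (10 without Daxx-null 2i replicate 2). With quantile normalization 14 rose in wild type and only 5 differed upward, so this count depended on the scaling. IAPEz-int differed by 0.69 (adjusted p = 0.036), a call that was lost without Daxx-null 2i replicate 2 (adjusted p = 0.063), without wild-type 2i replicate 3 (adjusted p = 0.059) and with only the libraries compared (adjusted p = 0.054). For IAPEy-int the difference was 0.19 (adjusted p = 0.42). Young L1 rose in 5 of 6 subfamilies in wild type, more for L1Md_T (2.46), whose difference was -1.01 (adjusted p = 0.014). No B1 subfamily passed the test of the difference, with 0 of 14 in either direction, also without Daxx-null 2i replicate 2.

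**Figure D5:**
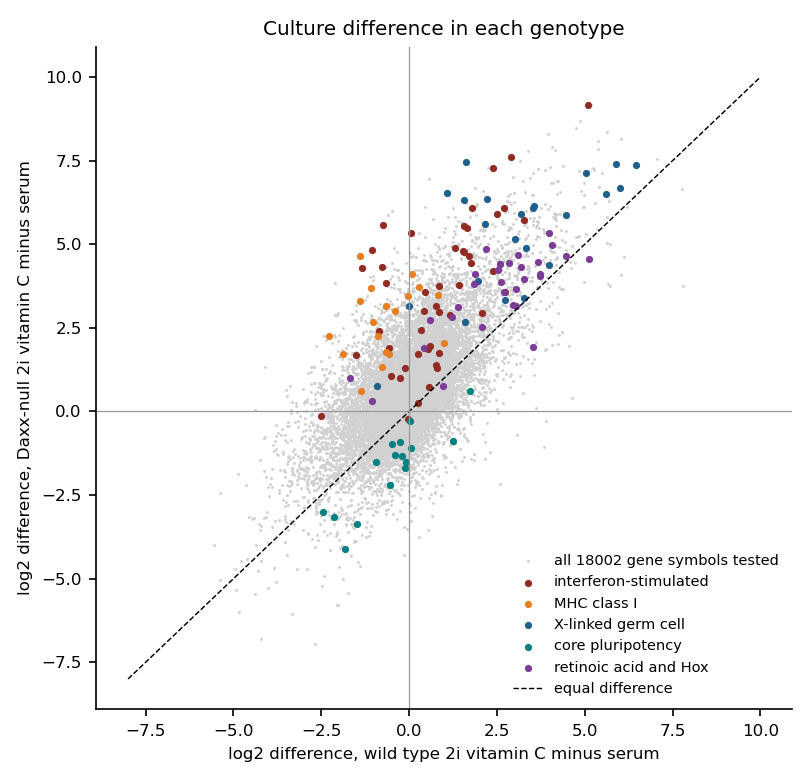
Log2 difference, 2i minus serum, of each tested gene in wild-type cells (x axis) and Daxx-null cells (y axis), with 5 lists in colour and a dashed line of equal difference. Most interferon-stimulated and all MHC class I genes lie above the line, core pluripotency genes mostly below it, and retinoic acid and Hox genes on both sides, more of them above.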

How the data were processed

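The authors deposited FPKM per gene and per repeat subfamily for each library, and a series table of log2 values, which matches quantile normalization of the FPKM. The tools named by the submitters' processing notes are limma, HOMER 4.8 and Bowtie2 2.2.6, and the build is mm9. No label states the FPKM scale; a total of 10 M units per library was inferred. Low values were whole multiples of 1 counting unit within a tolerance of 0.1, which gave the depth of each library. The sources used here give no strand, so reads of antisense partners and of overlapping genes are not separable.

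Genes were tested with limma 3.58.1 (R 4.3.3, variance trend) on log2(FPKM + 0.5), keeping 18002 of 24505 entries that reached FPKM 1 in 3 or more libraries. For repeats the pseudocount was 0.526, and 864 of 906 subfamilies with values above 0 in 9 or more libraries were kept. A single fit of 6 group means held all 18 libraries. Calls used a Benjamini-Hochberg adjusted p under 0.05. The model was tested on simulated data. Alternatives covered libraries in the fit, pseudocount, filters, scaling, chromosome shifts, replicate block, weights, fold and left-out libraries.

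The comparison and the 37 gene lists (845 genes, 841 matched, 811 tested) and 12 repeat lists were chosen with earlier results of these data known. Named genes were Daxx, the 12 largest rises and falls with non-overlapping groups, a mean of at least 10 FPKM and the same call without Daxx-null 2i replicate 2, up to 5 called members per list, Y-linked genes, 8 genes per direction for the difference between genotypes, and defining genes. For repeats the rule took 10 per direction and up to 4 per list. Genes outside the rule (Dppa2, Tubb3, Psmb10, Oas3, Ifitm3, Trim25, Postn, Lum, Prl3d1, Hba-x, Hbb-bh1, Slc25a31, Brdt, Fkbp6, Sycp1, Ddx25, Tdrd1 and Ddx4) were chosen after their values were seen. Some genes the rule chose are not reported here.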

Additional observations from a re-analysis of the deposited data

Results flagged for a closer look

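The culture difference was larger or smaller in Daxx-null than in wild-type cells, by the test of the difference itself (limma, adjusted p under 0.05), for 5678 genes upward and 2079 downward, and for 152 repeat subfamilies upward and 37 downward.

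The 8 genes with the largest upward differences were H19 (6.48), Cxcl10 (6.31), Psmb8 (6.04), Gbp2b (5.88), Fmr1nb (5.84), Eif2s3y (5.66), Gbp2 (5.62) and Xlr3a (5.44) on the log2 scale. In wild-type cells H19 was at 527, 429 and 14.6 FPKM in 2i and 238, 268 and 146 in serum, and without wild-type 2i replicate 3 its difference was 4.82. In Gbp2b, a guanylate-binding protein gene, wild-type libraries held 15.3, 14.8 and 0.543 in 2i and 18.6, 19.9 and 5.22 in serum, against 111, 177 and 128 and 2.79, 4.82 and 5.78 in Daxx-null cells. Serum values of Xlr3a were 56.4, 47.2 and 37.1 in wild-type and 0.278, 0.387 and 0.316 in Daxx-null cells, while its 2i values were 96, 94.3 and 107 and 93.3, 61.7 and 76.1. Eif2s3y is 1 of the 4 Y-linked genes that were near 0 in Daxx-null serum libraries.

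Genes with large downward differences were Apol6 (-4.90), Nkx6-3 (-4.29), Nkx1-2 (-4.25), Cd37 (-4.17), Grin2c (-4.16), Etv4 (-4.06) and Rln3 (-4.03). Cd37, a tetraspanin of blood cells, was at 283, 336 and 329 in wild-type 2i against 21.9, 17 and 23.9, 33.4, 15.6 and 28.6 and 37.6, 32.8 and 21.8 in wild-type serum, Daxx-null 2i and Daxx-null serum. Nkx1-2, a homeobox gene, was at 24.4, 21.5 and 23.9 in wild-type 2i and below 2 FPKM in all libraries of the other 3 groups. Grin2c, a glutamate receptor subunit, was at 102, 97.9 and 96.2 in Daxx-null serum and below 9 FPKM in all libraries of the others. The genes named in these paragraphs kept their direction and their call in each of 25 alternatives. Part of this was set by the rule that chose them. It required the same call without Daxx-null 2i replicate 2, and culture differences between single libraries that did not overlap between the genotypes.

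Repeat subfamilies with upward differences were tRNA-Glu-GAG (3.35), MLT1J1-int (2.21), Ricksha_c (2.21), MER99 (2.03) and L1M3f (1.97), and with downward differences RLTR45-int (-2.04), MMETn-int (-1.95), tRNA-Trp-TGG (-1.72), ETnERV-int (-1.57) and RLTRETN_Mm (-1.57). Neither tRNA-Glu-GAG nor Ricksha_c rose by the test in Daxx-null cells (log2 0.46 and -0.28). Both fell in wild type (log2 -2.89 and -2.49). RLTR45-int rose in both genotypes, from 9.93, 9.97 and 10.7 to 93.2, 68.6 and 101 in Daxx-null and from 6.42, 6.38 and 5.59 to 229, 217 and 217 in wild-type cells. The call of tRNA-Trp-TGG was lost in 1 of 23 alternatives. For these subfamilies too the rule required the same call without Daxx-null 2i replicate 2.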

How the results depend on the processing

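Genes lower in Daxx-null 2i numbered 3931, and 6153 with quantile normalization, 6162 in the authors' normalised table and 5945 with array weights. At least 2-fold, 4760 genes were higher and 1494 lower. For the difference between genotypes the counts of 5678 and 2079 became 3054 and 3441 (quantile normalization), 3092 and 3470 (authors' table) and 3767 and 3823 (chromosome shift removed), with 3590 lower under median-ratio scaling, 4139 lower with array weights and 697 lower at least 2-fold. Repeats lower (278) became 173 with only the libraries compared. Repeats of at least 10 FPKM gave 44 higher and 123 lower, and at least 2-fold 67 and 31. The repeat difference (152 and 37) became 99 and 24 with only the libraries compared (93 higher also without Daxx-null 2i replicate 2), 55 and 87 with quantile normalization, 78 and 89 with median-ratio scaling, 34 and 15 at least 2-fold, and 32 higher at 10 FPKM. Leaving out 1 library gave 98 to 172 higher, the lowest without Daxx-null serum replicate 1. The neural sum difference (-166.7) turned positive without Daxx-null 2i replicate 1 (439.6) or 3 (522.8) and as a mean of log2 (0.563); leaving out 1 library gave -1463 to 522.8. The causes were not tested. Same-numbered Daxx-null replicates did not pair (correlations 0.187, 0.0942 and -0.0451), and the replicate block gave 7562 and 3950 genes and 150 and 272 repeats. For the Daxx-null culture difference, each named gene or subfamily was compared with its main result in each alternative. The call was unchanged in 4574 of these comparisons, gained in 5, lost in 64 and reversed in 0. An item called in neither fit counts as unchanged. Part of this was set by the rule for the largest rises and falls, which required the same call without Daxx-null 2i replicate 2. With 3 libraries per group, exact tests of a single value cannot pass 0.05. The FPKM scale was inferred, and low genes rest on few units.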

Other observations

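Genes of metabolism not described above are given by list. Of 32 tested genes of sterol and fatty acid synthesis 17 were higher and 4 lower in Daxx-null 2i (14 and 7 without replicate 2), among them the acetyl-CoA synthetase gene Acss2 (72.4, 77.2 and 72.2 against 12.3, 12.2 and 10.7 FPKM, log2 2.61), Me1 (2.43), Ebp (1.70), Hsd17b7 (1.41) and Msmo1 (1.04). In wild type 18 rose and 1 fell. Of 20 tested ATF4 and amino acid genes 2 rose and 12 fell (the same counts without replicate 2), with falls of Chac1 (-1.88), Shmt2 (-1.58), Pck2 (-1.54) and Phgdh (-1.42) and a rise of Atf3 (2.50). Metallothioneins were higher in 2i, Mt1 at 8217, 7047 and 6347 against 638, 649.7 and 698 (log2 3.44, adjusted p = 9.2e-09) and Mt2 by 2.90. Iron genes moved in opposite ways, with the exporter gene Slc40a1 at 329, 207 and 265 against 9.32, 23.1 and 20.1 (log2 3.96) and the transferrin receptor gene Tfrc at 262, 262 and 281 against 625, 711 and 711 (log2 -1.34). Their list of Nrf2, iron and metal genes had 8 rises, Nqo1 (2.22) among them, and 4 falls in 19 (8 and 3 without replicate 2), shares close to those of all tested genes. Oxidative phosphorylation had 3 rises and 10 falls in 29 (2 and 8 without replicate 2), all of them small, such as Ndufs8 (0.65) and Sdha (-0.52).

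Of 28 tested dioxygenases, enzymes that share the use of vitamin C as a cofactor, 11 rose and 9 fell (10 and 9 without replicate 2). Among all tested genes 41.8% were higher and 21.8% lower. The oxygen sensors Egln1 (1.59) and Egln3 (-2.17) moved in opposite directions, Plod2 rose by 1.32 and the demethylase gene Kdm4c fell by 1.30. P4ha3 rose by 2.76. Centromere and kinetochore genes had 2 rises and 9 falls in 18 (3 and 8 without replicate 2), with Hjurp, the chaperone of the centromeric histone, at 224, 225 and 261 against 490.3, 492 and 493 (log2 -1.06) and Cenpm (1.11) higher. In the 2-cell-like list 10 of 18 rose and 0 fell (10 and 2 without replicate 2), 5 of the rises being copies of Usp17l (1.59 to 3.93) and another Sp110 (3.95), and with quantile normalization 6 rose and 4 fell.

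Markers of other lineages are read against 41.8% of all genes higher and 21.8% lower. Of 19 trophoblast markers 10 rose and 3 fell (10 and 2 without replicate 2; summed FPKM 2210 to 2666 in 2i, 1166 to 1269 in serum), with Esx1 (4.49), Gata3 (4.07), Krt18 (4.02), Plac1 (3.62) and Krt8 (2.92), while Prl3d1 was listed at 0 in all 6 libraries. Of 17 mesoderm and streak genes 8 rose and 0 fell (median 1.11; 7 and 0, median 0.27, without replicate 2; 6 and 7 with quantile normalization; sums 161 to 231 against 60.1 to 83.4), with Gsc (4.61), Hand1 (2.30) and Eomes (1.46). Of 13 blood and endothelial genes 8 rose and 2 fell (7 and 2 without replicate 2, 4 and 4 with quantile normalization; sums 351 to 437 against 148 to 171), with Gata1 (2.89) and Runx1 (2.78) higher and Tal1 (-4.64) lower, and Hba-x and Hbb-bh1 listed at 0 in all 2i libraries. Of 10 glial genes 4 rose and 2 fell, shares close to those of all genes, and 3 rose and 4 fell without replicate 2 (sums 197 to 493 against 131 to 133), with Mbp (3.3) and Aldh1l1 (2.97) higher and Olig1 (-2.60) and Sox10 (-1.80) lower. Other cell types as a source of these values were not tested.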
